A study of Mus musculus with 6 samples.

Results

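Collagen chain genes encode the polypeptides that wind into collagen triple helices. Their members here were all rows of the gene count table whose symbol consisted of Col, a number, the letter a and a number, which gave 44 genes among 55401 gene identifiers. They were measured in polyA RNA of whole lacrimal gland, the gland that secretes tear fluid, from NOD/Ltj mice, an inbred strain that serves as a model of primary Sjögren's syndrome, and from ICR mice, an outbred stock used as the control. Each strain had 3 libraries, called NOD 1 to 3 and ICR 1 to 3 after the replicate numbers in the labels. The labels give no added allele or agent, no age and no sex. They do not say whether replicates came from separate animals, so the p-values measure only the spread between these samples. Strain and disease model cannot be told apart in this design, since the control is another strain. Fibrillar, basement membrane and other chains were compared between the strains, with and without ICR 1, a library that stood apart from the rest.

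Fibrillar collagens, chiefly types I and III, form the tensile fibres of stroma and are made mainly by fibroblasts. Type IV collagen forms the network of basement membranes under epithelia and around vessels, and type VI forms beaded filaments at the border of cells and fibres. The remaining chains decorate fibrils, anchor epithelium to stroma or span the cell membrane. In glands with chronic inflammation, stromal collagen is one of the features by which fibrosis is judged.

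The upstream sequence of 6 chain genes is shown because the results turn on them: the 3 neighbouring type VI genes, of which one differed between the strains and the others did not pass the test, Col3a1, whose level in ICR 1 was furthest above the other ICR libraries, Col7a1, the most abundant chain per length in most libraries, and Col4a4, which lies head to head with Col4a3. All are RefSeq sequence of build GRCm38.p6, written 5′ to 3′ on the gene's own strand and holding no exon of a protein-coding gene. Capitals mark the CCAAT box, the TATAAA box, and the GC box GGGCGG with its reverse complement CCGCCC. On chromosome 9, Col6a4 was read from the minus strand at chr9:106096784-106096933, Col6a5 from the minus strand at chr9:105960644-105960793, Col6a6 from the minus strand at chr9:105828161-105828310 and Col7a1 from the plus strand at chr9:108953436-108953585. On chromosome 1, Col3a1 was read from the plus strand at chr1:45311388-45311537. Col4a4 is given by the 71 bases that part it from Col4a3, on the minus strand at chr1:82586850-82586920. The Col6a4 stretch ends 92 bases before the RefSeq start and the Col6a6 stretch 75 bases before it, and the others end at the start. The RefSeq start of Col6a4 matched the start of no annotated transcript, while those of the other genes shown did match.
Col6a4: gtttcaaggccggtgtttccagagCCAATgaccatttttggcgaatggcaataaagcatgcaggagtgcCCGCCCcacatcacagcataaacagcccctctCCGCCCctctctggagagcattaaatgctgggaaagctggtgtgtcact
Col6a5: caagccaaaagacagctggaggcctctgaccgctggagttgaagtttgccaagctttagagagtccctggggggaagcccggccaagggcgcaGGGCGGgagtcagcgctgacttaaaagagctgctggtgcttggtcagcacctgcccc
Col6a6: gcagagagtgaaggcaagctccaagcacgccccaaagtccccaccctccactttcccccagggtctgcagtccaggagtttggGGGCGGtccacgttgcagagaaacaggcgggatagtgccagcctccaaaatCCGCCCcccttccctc
Col3a1: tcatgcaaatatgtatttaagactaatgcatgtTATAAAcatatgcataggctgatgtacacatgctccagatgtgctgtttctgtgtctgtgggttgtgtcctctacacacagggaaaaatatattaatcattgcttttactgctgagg
Col7a1: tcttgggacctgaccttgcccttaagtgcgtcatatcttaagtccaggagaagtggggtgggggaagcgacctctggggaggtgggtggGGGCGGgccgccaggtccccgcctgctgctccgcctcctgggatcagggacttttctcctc
Col4a4: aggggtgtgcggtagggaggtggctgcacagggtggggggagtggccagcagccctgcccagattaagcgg

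Of the 44 chains, 35 had a RefSeq promoter entry. In the 250 bases before the start, on either strand, 13 of these 35 chains held CCAAT, 21 held GGGCGG and 5 held TATAAA. The same letters stood in 33.8%, 32.7% and 12.4% of 32851 promoters of that length. Col4a3 and Col4a4 are separated by the 71 bases printed above, Col4a5 and Col4a6 by 1308 bases, and the annotated ends of Col4a1 and Col4a2 overlap by a few bases.

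The libraries held 62318534 to 64000969 counts in NOD and 58426580 to 76554340 counts in ICR. Scaling factors by the trimmed mean of M values (TMM) ran from 0.857 to 1.25 in NOD and from 0.809 to 1.19 in ICR, and levels below are counts per 1000000 (CPM) on these scaled totals. On the second principal component of all tested genes, which held 28.3% of the variance, ICR 1 stood at 57.5, against −29.7 and −29.1 in ICR 2 and ICR 3. Acinar cell markers summed to 2232 to 2402 CPM in NOD and 2139 to 3275 CPM in ICR, most of it Lpo. All 8 were detected in every library, but Prol1 stood at 2.52, 2.59 and 2.54 CPM in NOD, against 20.7, 147 and 68.0 CPM in ICR, and was called lower in NOD (log2 fold change −4.95; edgeR adjusted p = 0.0161). Salivary gland markers summed to 73.5, 2463 and 167 CPM in NOD 1, 2 and 3, against 1087, 2475 and 13630 CPM in ICR 1, 2 and 3. Bpifa2 gave the largest part in NOD 2 and ICR 3, at 1358 and 8888 CPM. Smgc and Dcpp3 were at 0 in every library, and Muc19 and Gal did not exceed 0.347 CPM in any. Skeletal muscle markers summed to 1.41, 5.83 and 2.42 CPM in NOD, against 1.27, 1.07 and 141 CPM in ICR. NOD 2 was thus well above the other NOD libraries in salivary markers, and ICR 3 was the highest library for both lists.

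Of the 44 chains, 40 had enough counts to be tested and 1, Col6a4, passed an adjusted p of 0.05 in edgeR's quasi-likelihood test, higher in NOD. Over all 18537 genes tested, 1.88% were called higher in NOD and 0.361% lower, 2.24% in either direction. No chain was called lower in NOD by edgeR. DESeq2 called Col6a4 higher and Col6a6 lower in NOD, where it called 4.84% of all genes higher and 1.54% lower. The limma-voom test called 0 chains, and 0.664% of all genes higher and 0.108% lower. In edgeR, 7 chains of 40 had an unadjusted p under 0.05, against 13.1% of all genes tested, and they were Col6a4, Col6a6, Col3a1, Col14a1, Col5a3, Col24a1 and Col25a1. Fold changes were below 0 on the log2 scale for 26 chains and above 0 for 14. Their median log2 fold change, NOD over ICR, was −0.18, against −0.03 over all genes tested. The plot of strain differences shows how far these values move once ICR 1 is left out.

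**Figure D1:**
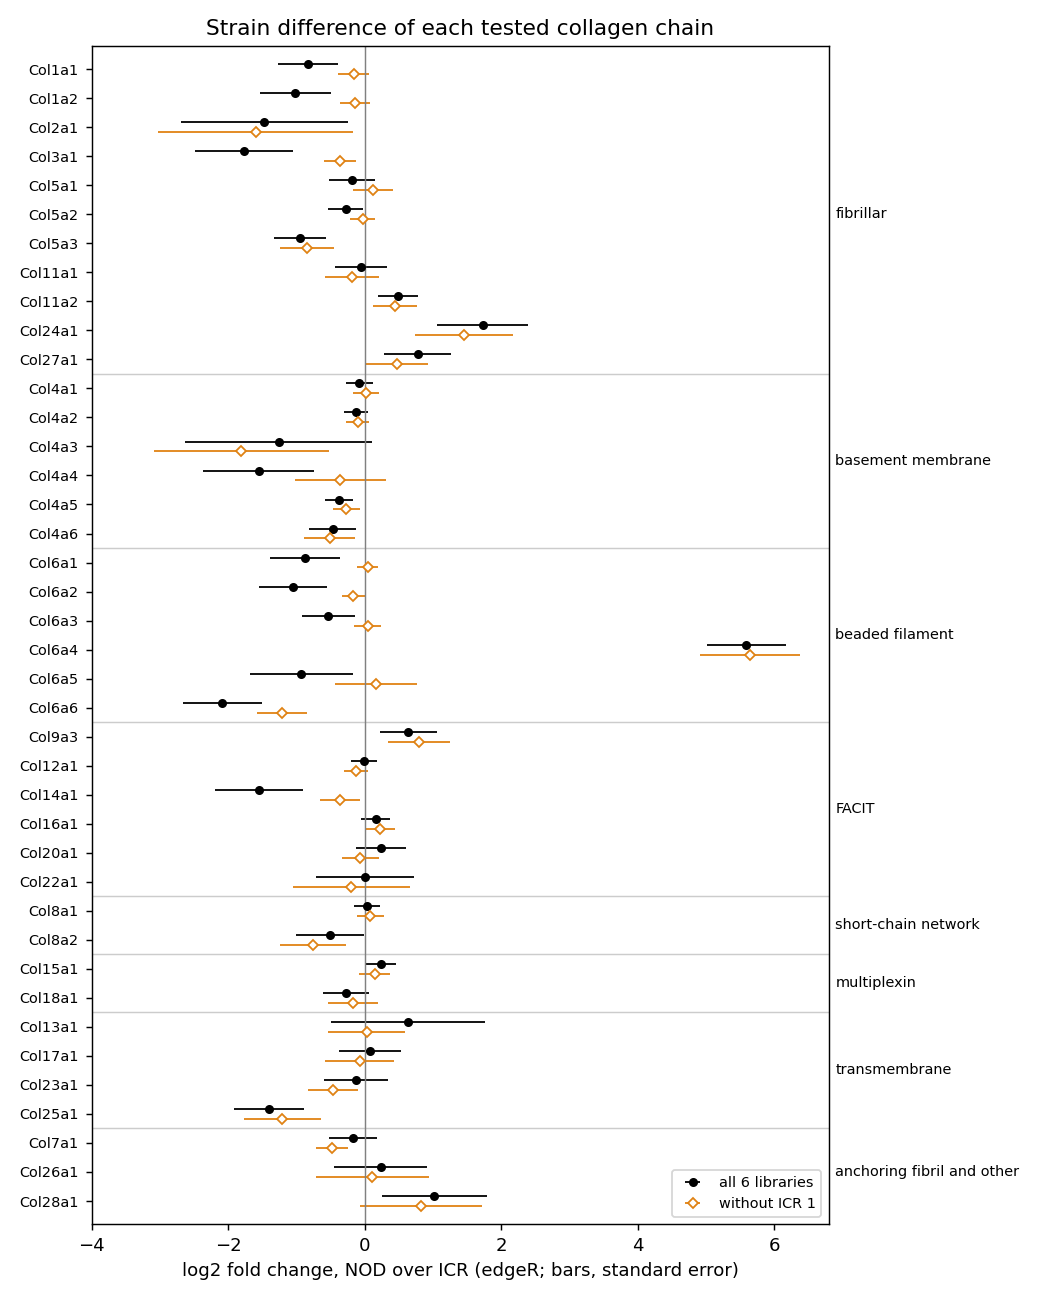
Log2 fold change of NOD over ICR for each of the 40 tested chains, by class, with all 6 libraries (filled points) and without ICR 1 (open diamonds). Bars are standard errors derived from the F statistic of edgeR's quasi-likelihood test. Col6a4 stands at 5.60 and 5.65, and the type I, III and VI chains that lie well below 0 with all libraries come close to 0 without ICR 1, except Col6a6.

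Without ICR 1 the same 40 chains were tested and Col6a4 was again the 1 called, where 2.1% of 19322 genes were called higher in NOD and 0.611% lower, 2.71% in either direction. At an unadjusted p under 0.05 only Col6a4 and Col6a6 remained of the 7, against 16.6% of all genes. The median log2 fold change of the chains was −0.11, against −0.02 over all genes tested. Groups did not overlap for 9 chains with all libraries. Col6a4, Col11a2 and Col24a1 lay above ICR in every NOD library, which is 3 of 40 chains against 11.2% of all genes tested. Col3a1, Col4a5, Col5a3, Col6a6, Col14a1 and Col25a1 lay below ICR in every NOD library, which is 6 of 40 chains against 8.89%. Without ICR 1 the same 3 lay above, where 18.9% of all genes did, and 10 lay below, where 16.3% did, with Col4a6, Col7a1, Col8a2 and Col23a1 added. In all, 20 chains averaged 5 CPM or more in NOD or ICR. Among these, the log2 fold changes furthest from 0 without ICR 1 were 5.65 for Col6a4, −1.21 for Col6a6 and −0.48 for Col7a1.

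**Figure D2:**
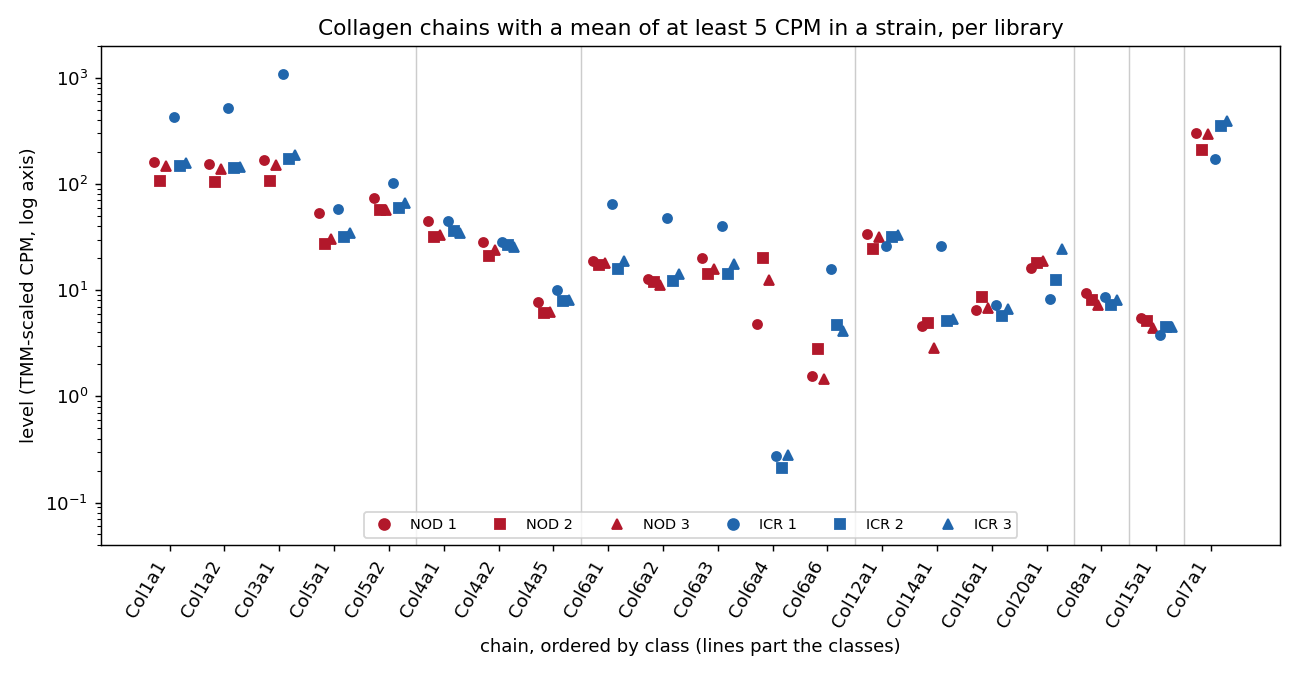
TMM-scaled CPM on a log axis for the 20 chains that averaged 5 CPM or more in NOD or ICR, each point 1 library, with lines parting the classes. ICR 1 (blue circles) lies apart from the other ICR libraries for the type I and III chains, the type VI chains other than Col6a4, Col14a1 and Col7a1, and Col6a4 separates NOD from ICR.

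Fibrillar chains were the bulk of collagen RNA in both strains. Measured as CPM per kilobase of transcript, they made up 60.6%, 54.9% and 58.2% of the chain total in NOD 1, 2 and 3, against 83.1%, 58.1% and 57.0% in ICR 1, 2 and 3. Their summed level was 630, 413 and 538 CPM in NOD, against 2208, 569 and 607 CPM in ICR. NOD averaged 527 ± 109 CPM and ICR 1128 ± 936 CPM (SD, n = 3 each), and without ICR 1 the ICR mean was 588 ± 27.4 CPM (n = 2). ICR 1 stood at 3.76 times the mean of ICR 2 and ICR 3. In bulk tissue, fewer cells of a type and less RNA per cell cannot be told apart.

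Col1a1 and Col1a2 encode the chains of type I collagen, the main fibre of most stroma. Col1a1 stood at 160, 106 and 148 CPM in NOD 1, 2 and 3, against 429, 148 and 157 CPM in ICR 1, 2 and 3. Col1a2 stood at 156, 104 and 138 CPM in NOD, against 516, 143 and 146 CPM in ICR. For both, the groups overlapped, NOD 2 was the lowest library and ICR 1 was the highest by far. The log2 fold change of Col1a1 was −0.83 ± 0.44 (SE; edgeR adjusted p = 0.51) with all libraries and −0.16 ± 0.22 without ICR 1. That of Col1a2 was −1.02 ± 0.52 (edgeR adjusted p = 0.487) and −0.14 ± 0.22 without ICR 1.

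Col3a1 encodes the chain of type III collagen, which co-assembles with type I in compliant tissues. It stood at 169, 107 and 152 CPM in NOD 1, 2 and 3, against 1090, 174 and 189 CPM in ICR 1, 2 and 3. Every NOD library lay below every ICR library, by a narrow margin except against ICR 1. The log2 fold change was −1.76 ± 0.72 (SE; edgeR adjusted p = 0.356), and without ICR 1 it was −0.36 ± 0.23 (edgeR adjusted p = 0.506). ICR 1 held 6.01 times the mean of ICR 2 and ICR 3, the highest such ratio of the 39 chains that had one.

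Type V chains join type I fibrils and limit their width. Col5a1 stood at 52.9, 27.0 and 30.3 CPM in NOD, against 58.6, 31.5 and 34.8 CPM in ICR. Col5a2 stood at 74.3, 56.4 and 56.9 CPM in NOD, against 102, 59.3 and 66.2 CPM in ICR. Replicate 1 was the highest library of its strain for both, and the groups overlapped. The log2 fold change was −0.18 ± 0.34 for Col5a1 and −0.28 ± 0.25 for Col5a2, and 0.13 ± 0.29 and −0.02 ± 0.18 without ICR 1. Col5a3, the minor type V chain, was lower in every NOD library at 3.48, 1.63 and 1.57 CPM, against 5.03, 3.97 and 3.90 CPM in ICR. Its log2 fold change was −0.95 ± 0.38 (edgeR adjusted p = 0.346), and −0.85 ± 0.40 without ICR 1.

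The remaining fibrillar chains were rare. Col11a2, a type XI chain, stood at 6.87, 3.77 and 4.17 CPM in NOD, against 3.41, 3.47 and 3.65 CPM in ICR. Col24a1, a minor fibrillar chain, stood at 0.296, 1.03 and 0.606 CPM in NOD, against 0.116, 0.259 and 0.21 CPM in ICR. The NOD libraries lay above ICR for both, and the log2 fold change of Col24a1 was 1.73 ± 0.67 (SE; edgeR adjusted p = 0.33), and 1.45 ± 0.72 without ICR 1. In ICR, Col24a1 was near the level of 3 fragments in a library, 0.173 to 0.21 CPM. Col11a1 and Col27a1 had log2 fold changes of −0.05 and 0.78. Col2a1, the chain of cartilage fibrils, did not exceed 0.402 CPM in any library.

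**Figure D3:**
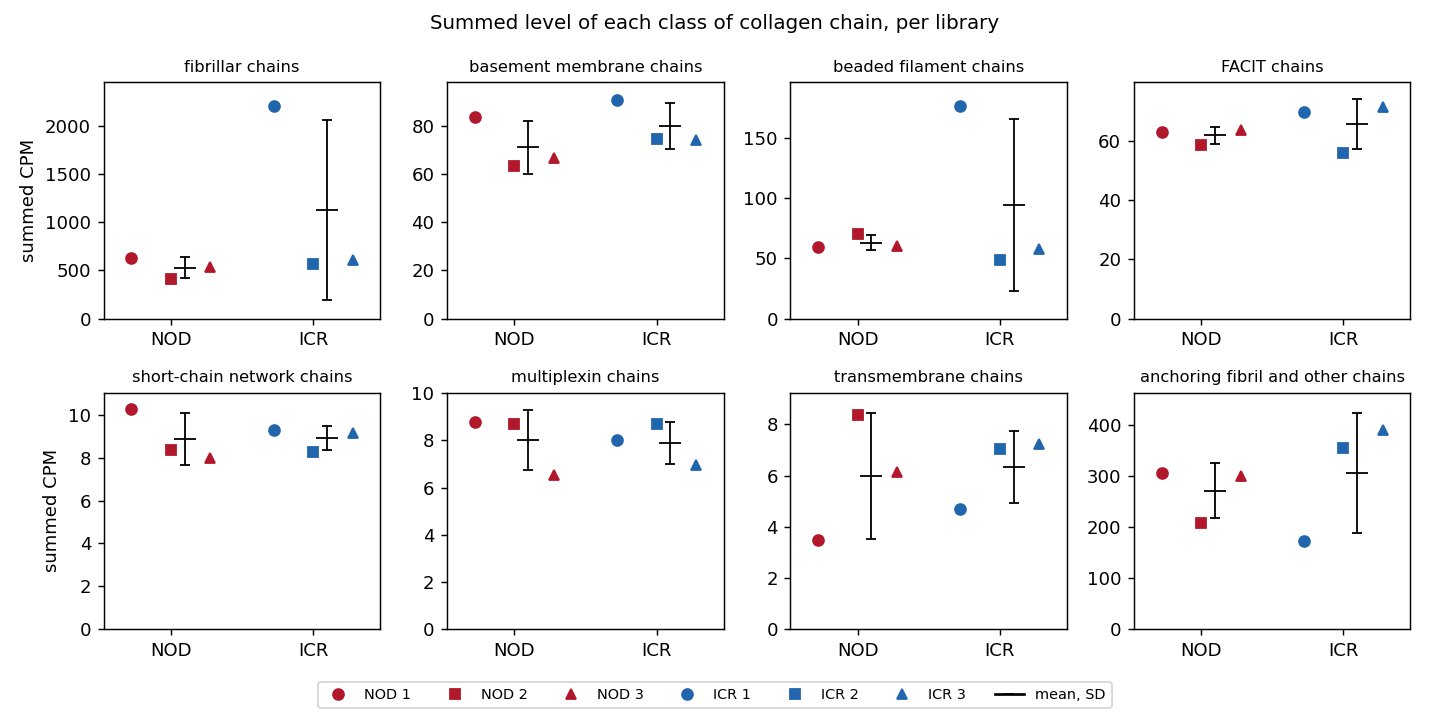
Summed CPM of the members of each class in each library, with the mean and SD of 3 libraries per strain. The fibrillar sum of ICR 1, 2208 CPM, and its beaded filament sum, 177 CPM, lie far above the other libraries, while the basement membrane sums lie between 63.3 and 90.8 CPM.

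None of the 6 basement membrane chains passed the test. Their log2 fold changes were all below 0 with all libraries, with a median of −0.42, and −0.31 without ICR 1, against −0.28 and −0.14 for the fibrillar chains. The sum of the class was carried by Col4a1 and Col4a2. The chains summed to 83.7, 63.3 and 66.5 CPM in NOD, against 90.8, 74.7 and 74.2 CPM in ICR, so that the groups overlapped through NOD 1 and ICR 1 held 1.22 times the mean of ICR 2 and ICR 3. Col4a1 and Col4a2 form the common type IV network of nearly all basement membranes. Col4a1 stood at 44.8, 31.9 and 33.4 CPM in NOD, against 44.7, 36.5 and 34.9 CPM in ICR. Col4a2 stood at 28.7, 20.9 and 24.2 CPM in NOD, against 28.6, 26.4 and 25.6 CPM in ICR. Their levels differed by less than the spread between libraries, with log2 fold changes of −0.08 ± 0.20 and −0.13 ± 0.17 (SE; edgeR adjusted p = 0.929 and 0.839).

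The other type IV chains belong to specialised basement membranes. Col4a5 stood at 7.78, 6.15 and 6.24 CPM in NOD, against 10.1, 7.88 and 8.13 CPM in ICR. NOD lay below ICR in each library, with a log2 fold change of −0.37 ± 0.21 (SE; edgeR adjusted p = 0.527), and −0.27 ± 0.20 without ICR 1. Col4a6, its head-to-head neighbour on chromosome X, stood at 1.46, 3.18 and 2.42 CPM in NOD, against 3.12, 3.20 and 3.48 CPM in ICR. Col4a4 had 38, 81 and 21 counts in NOD, against 294, 29 and 72 counts in ICR, and Col4a3 had 16, 15 and 0 counts in NOD, against 3, 15 and 50 counts in ICR. In ICR 1, Col4a4 was thus at 4.92 times the mean CPM of ICR 2 and ICR 3 while its partner across the 71 bases was at 0.0776 times. Col4a3 lay near the floor of 12 counts, about 3 fragments, in most libraries. The log2 fold change of Col4a4 was −1.55 ± 0.81 (edgeR adjusted p = 0.498), and −0.35 ± 0.66 without ICR 1.

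The beaded filament chains of type VI held both the one strain difference that passed the test and a group of chains that departed in ICR 1. Col6a1, Col6a2 and Col6a3 encode the classical heterotrimer. Col6a1 stood at 18.7, 17.4 and 18.0 CPM in NOD, against 64.5, 15.8 and 18.8 CPM in ICR. Col6a2 stood at 12.8, 11.98 and 11.1 CPM in NOD, against 48.0, 12.3 and 14.2 CPM in ICR. Col6a3 stood at 20.02, 14.3 and 15.7 CPM in NOD, against 40.3, 14.1 and 17.8 CPM in ICR. ICR 1 was the highest library for all 3 chains, at 3.73, 3.62 and 2.53 times the mean of ICR 2 and ICR 3. The log2 fold changes were −0.87 ± 0.51, −1.05 ± 0.50 and −0.53 ± 0.39 with all libraries (SE; the lowest edgeR adjusted p was 0.439), and 0.04 ± 0.15, −0.16 ± 0.16 and 0.05 ± 0.20 without ICR 1.

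Col6a4, Col6a5 and Col6a6 encode alternative chains that can stand in for the α3 chain of type VI collagen, and the genes lie side by side on chromosome 9. Col6a4 stood at 4.85, 20 and 12.3 CPM in NOD 1, 2 and 3, against 0.275, 0.21 and 0.28 CPM in ICR 1, 2 and 3. Its counts were 262, 1606 and 815 in NOD, against 19, 13 and 16 in ICR, which is a few fragments in each ICR library. The groups were far apart, and NOD 1 was the lowest of the NOD libraries. Mean levels were 12.4 ± 7.58 CPM in NOD and 0.255 ± 0.0388 CPM in ICR (SD, n = 3 each). The log2 fold change was 5.60 ± 0.58 (SE; edgeR adjusted p = 0.0102) with all libraries and 5.65 ± 0.73 (edgeR adjusted p = 0.0201) without ICR 1. Leaving out NOD 3 gave 5.61 with an edgeR adjusted p of 0.0665, and limma-voom gave 5.41 with an adjusted p of 0.115, so the call was lost in both while the size of the difference stayed.

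Neither of the neighbouring type VI genes lay above ICR in every NOD library. Col6a5 stood at 0.982, 3.51 and 1.64 CPM in NOD, against 8.02, 1.15 and 2.50 CPM in ICR, with overlapping groups and a log2 fold change of −0.92 ± 0.75 (SE; edgeR adjusted p = 0.704), and 0.17 ± 0.61 without ICR 1. Col6a6 stood at 1.56, 2.78 and 1.45 CPM in NOD, against 15.8, 4.73 and 4.14 CPM in ICR. Every NOD library lay below every ICR library for Col6a6, and its log2 fold change was −2.09 ± 0.58 (edgeR adjusted p = 0.149), and −1.21 ± 0.36 (edgeR adjusted p = 0.149) without ICR 1. DESeq2 gave Col6a6 an adjusted p of 0.00539. Of all genes tested 2.24% were called, and within 5 tested genes on each side of Col6a4 no other gene was. Of these, Glyctk, next to Col6a4 on the other side, stood at 0.537, 0.735 and 0.333 CPM in NOD, against 0, 0.242 and 0.14 CPM in ICR (log2 fold change 2.07 ± 1.09; edgeR adjusted p = 0.503). Tlr9, 5 tested genes away, stood at 0.407, 1.26 and 0.576 CPM in NOD, against 0.26, 0.0646 and 0.315 CPM in ICR (log2 fold change 1.81 ± 0.75; edgeR adjusted p = 0.367). Both lay above ICR in every NOD library, as 11.2% of all genes tested did, and both were at low levels. Exons of Col6a4 overlap opposite-strand genes over 3.39% of their bases, and 1.58% of its 50-base stretches occur in another gene.

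Markers of lymphocytes moved with Col6a4. Among all genes tested, edgeR called 1.88% higher in NOD. Of 8 B cell markers 7 were called higher in NOD, and they summed to 117 to 491 CPM in NOD and 3.44 to 6.66 CPM in ICR. Of 8 T cell markers 6 were called higher in NOD, with sums of 27.2 to 77.2 CPM in NOD and 2.12 to 2.89 CPM in ICR. Like Col6a4, both sums were highest in NOD 2 and lowest in NOD 1 among the NOD libraries. No marker of either list was at 0 in every library. Their part in the Col6a4 difference was not tested.

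**Figure D4:**
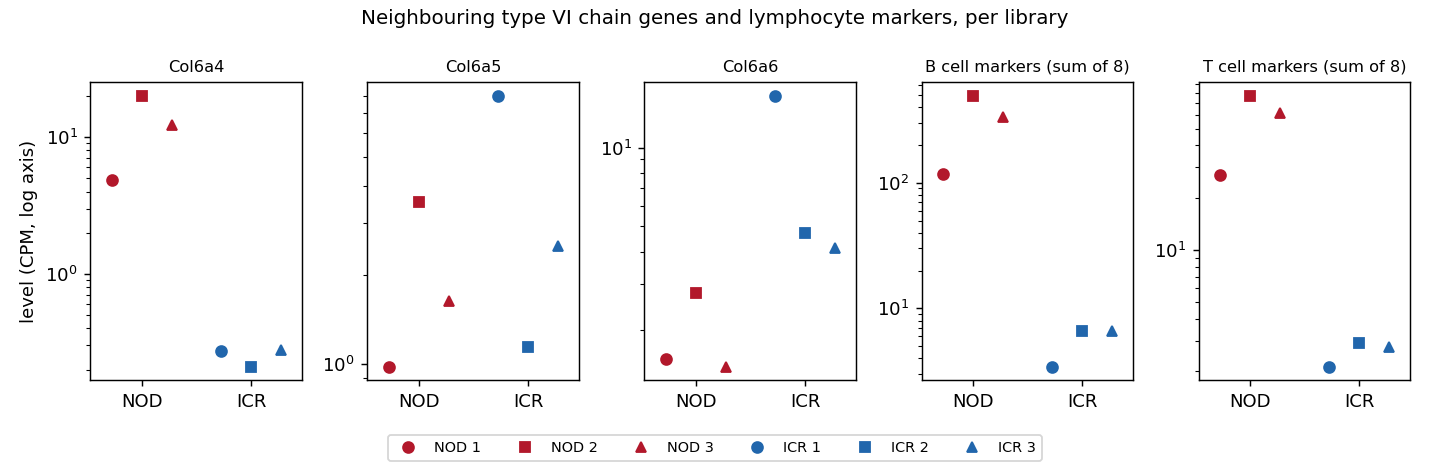
CPM on log axes of Col6a4, Col6a5 and Col6a6, which are neighbours on chromosome 9, and summed CPM of 8 B cell and 8 T cell markers, each point 1 library. Col6a4 and both marker sums separate NOD from ICR with NOD 2 highest, Col6a6 lies lower in NOD, and Col6a5 overlaps.

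FACIT chains, which sit on the surface of fibrils, summed to 63.1, 58.8 and 63.8 CPM in NOD, against 69.7, 56.0 and 71.5 CPM in ICR. Col12a1, a FACIT chain of load-bearing stroma, stood at 33.6, 24.2 and 31.9 CPM in NOD, against 26.1, 31.4 and 33.0 CPM in ICR, with a log2 fold change of −0.01 ± 0.19. Col14a1, a FACIT chain of interstitial fibrils, stood at 4.65, 4.86 and 2.88 CPM in NOD, against 25.8, 5.17 and 5.35 CPM in ICR. Its log2 fold change was −1.55 ± 0.64 (SE; edgeR adjusted p = 0.366), and −0.37 ± 0.29 without ICR 1, where NOD still lay below. Col16a1 stood at 6.54, 8.69 and 6.73 CPM in NOD, against 7.19, 5.74 and 6.68 CPM in ICR. Col20a1 stood at 16.3, 18.2 and 18.8 CPM in NOD, against 8.31, 12.6 and 24.2 CPM in ICR, where the ICR libraries ranged around the NOD ones. Of the other FACIT chains, Col9a3 and Col22a1 were tested, with log2 fold changes of 0.64 and 0.00, and Col9a1, Col9a2 and Col19a1 were too rare to test, with at most 32 counts in any library. Reads of Col9a3 may be shared with Tcfl5, whose exons on the opposite strand overlap 6.07% of its exon bases.

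Col7a1, the chain of the anchoring fibrils that tie basement membrane to stroma under stratified epithelia, stood at 305, 208 and 298 CPM in NOD 1, 2 and 3, against 171, 354 and 390 CPM in ICR 1, 2 and 3. The NOD libraries lay between ICR 1 below and the other ICR libraries above. The log2 fold change was −0.17 ± 0.35 (SE; edgeR adjusted p = 0.904) with all libraries and −0.48 ± 0.24 (edgeR adjusted p = 0.379) without ICR 1. Per kilobase, Col7a1 was the highest chain in 5 of the 6 libraries. It averaged 29.2 ± 5.88 CPM per kb in NOD, ahead of Col3a1 at 25.7 ± 5.73, Col1a2 at 24.8 ± 4.93 and Col1a1 at 23.3 ± 4.79 CPM per kb (SD, n = 3). Next came Col5a2 at 9.43 ± 1.54 and Col4a1 at 5.55 ± 1.06 CPM per kb. These SDs are between libraries and do not judge the order of chains inside a library, which was not tested. Col7a1 stood at 33.0, 22.5 and 32.3 CPM per kb in NOD 1, 2 and 3, against 30.4, 19.3 and 27.3 for Col3a1. In ICR 2 and ICR 3 the order at the top was the same, with Col7a1 at 40.2 ± 2.72, Col3a1 at 32.6 ± 1.98, Col1a2 at 27.0 ± 0.405 and Col1a1 at 25.7 ± 1.09 CPM per kb (SD, n = 2). In ICR 1 the order was Col3a1 at 196, Col1a2 at 96.5 and Col1a1 at 72.4 CPM per kb, with Col7a1 at 18.5 CPM per kb.

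The other classes were low, and their summed levels overlapped between the strains, though single chains differed more. Col8a1, a short-chain network former of vessel walls, stood at 9.37, 8.00 and 7.21 CPM in NOD, against 8.70, 7.24 and 8.02 CPM in ICR. Col15a1, a multiplexin of basement membrane zones, stood at 5.48, 5.17 and 4.44 CPM in NOD, against 3.80, 4.52 and 4.46 CPM in ICR. The log2 fold changes were 0.04 ± 0.20 and 0.24 ± 0.23. Col18a1, the multiplexin that carries endostatin, had −0.28 ± 0.34. The transmembrane chains Col13a1, Col17a1, Col23a1 and Col25a1 summed to 3.46, 8.37 and 6.13 CPM in NOD, against 4.70, 7.04 and 7.24 CPM in ICR. Col17a1, a hemidesmosome chain, had a log2 fold change of 0.08 ± 0.46, and Col25a1 had −1.40 ± 0.52 (SE; edgeR adjusted p = 0.307) at 0.237 to 0.426 CPM in NOD and 0.549 to 1.07 CPM in ICR. Col13a1 and Col23a1 had 0.64 and −0.13, and 0.03 and −0.46 without ICR 1. Col8a2, Col26a1 and Col28a1 lay at 1.14 CPM or below in every library. Their log2 fold changes were −0.50, 0.23 and 1.02, and −0.76, 0.12 and 0.82 without ICR 1. Col10a1, the chain of hypertrophic cartilage, had 4 counts in NOD 3 and 0 in the other libraries.

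ICR 1 was the highest of the 6 libraries for 16 of the 40 tested chains, and ICR 2 for none. The share of all genes that were highest in each library was not taken, so these counts do not set the chains apart from other genes. Among the 39 chains with a value in the other ICR libraries and above 0 in ICR 1, 10 were at least 2 times the mean of ICR 2 and ICR 3 and 8 at least 3 times. Among 17552 genes with such a ratio, 12% and 5.2% were that high, and the median ratio was 1.00. The 10 chains were Col3a1, Col4a4, Col14a1, Col6a5, Col6a1, Col6a2, Col1a2, Col6a6, Col1a1 and Col6a3. Another 17 chains were below the mean of the other ICR libraries, among them Col7a1 at 0.46 and Col20a1 at 0.451 times.

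**Figure D5:**
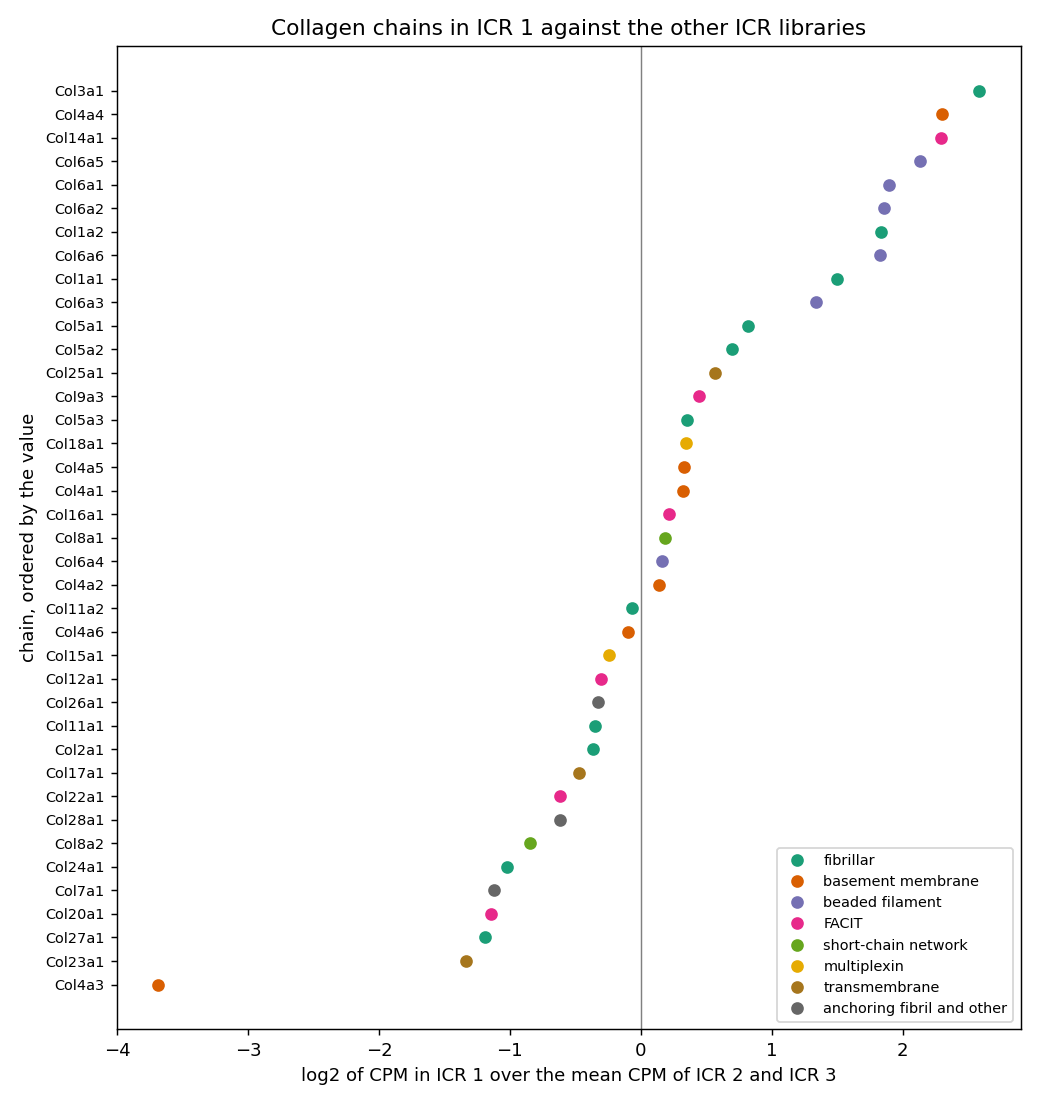
Log2 ratio of the CPM in ICR 1 to the mean CPM of ICR 2 and ICR 3 for 39 chains, ordered by the value and coloured by class. Type I and III chains, the type VI chains other than Col6a4, Col14a1 and Col4a4 lie above 1, Col4a1, Col4a2 and Col4a5 lie near 0, and Col7a1, Col24a1, Col20a1, Col27a1, Col23a1 and Col4a3 lie below −1, with Col4a3 lowest at −3.69.

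Fibroblast markers moved with these chains in ICR 1. All 10 of the fibroblast list were highest there, at 1.28 (Dpp4) to 18.3 (Dpt) times the mean of ICR 2 and ICR 3. Their sum was 266 to 328 CPM in NOD and 325 to 1984 CPM in ICR, with ICR 2 and ICR 3 at 325 and 348 CPM. Dcn and Gsn gave 693 and 638 CPM of the sum in ICR 1. Ly6a alone had a log2 fold change above 0, at 0.71 ± 0.57 (SE). Without ICR 1, Ly6a was called higher in NOD, at 1.74 ± 0.25 (edgeR adjusted p = 0.022). Every other fibroblast marker was then still below 0, from −0.73 for Dcn to −0.15 for Pdgfra, and none was called lower. Across all 10, the median was −2.12 with all libraries and −0.43 without ICR 1. Ly6a gave 69.7, 77.2 and 55.4 CPM of the sum in NOD, against 83.8, 16.15 and 23.9 CPM in ICR 1, 2 and 3. The sum thus does not stand for the list. Of the list, Dcn, Lum, Dpt and Mfap5 are also among the matrix genes described below. Macrophage markers summed to 84.4 to 120 CPM in NOD, against 205, 36.1 and 46.5 CPM in ICR 1, 2 and 3. Of 8, edgeR called 0 with all libraries. Without ICR 1 it called 3 higher in NOD, C1qa, C1qb and C1qc, where 2.1% of all genes were called higher. Their log2 fold changes were then 1.75, 1.88 and 1.79. Mrc1 and Cd163 had −0.13 and −0.43 without ICR 1, which held 7.53 and 13.8 times the mean of ICR 2 and ICR 3. Adipocyte markers summed to 4.96 to 24.7 CPM in NOD, against 62.7, 7.20 and 30.1 CPM in ICR. Pericyte and smooth muscle markers summed to 37.9 to 60.5 CPM in NOD and 46.6 to 67.5 CPM in ICR, and endothelial markers to 67.6 to 75.4 CPM in NOD and 42.6 to 53.0 CPM in ICR. Vwf gave 29.9 to 45.4 CPM of the endothelial sum in NOD, against 14.7 to 23.1 CPM in ICR. The 8 endothelial markers ran from −2.07 for Tek to 1.44 for Pecam1, with a median log2 fold change of 0.29, and 0.02 without ICR 1. Schwann cell markers summed to 31.6 to 37.5 CPM in NOD and 33.7 to 45.8 CPM in ICR, and myoepithelial and basal markers to 104.5 to 123 CPM in NOD and 119 to 167 CPM in ICR. Cartilage and tendon markers stayed at 1.67 to 2.20 CPM in NOD and 2.10 to 3.13 CPM in ICR, with Matn1 at 0 in every library. What these cells contribute to the collagen levels was not tested.

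Ratios between chains inside a library do not depend on how libraries are scaled. Of 15 ratios planned, 14 could be formed, since Col4a3 was at 0 in NOD 3. With 3 libraries against 3, a two-sided exact permutation test cannot go below p = 0.10, and no ratio passed after adjustment over the 14 (lowest adjusted p = 0.7). Counts of Col1a1 per count of Col1a2 were 1.02, 1.02 and 1.07 in NOD, against 0.833, 1.03 and 1.07 in ICR. Counts of Col3a1 per count of Col1a1 were 1.06, 1.01 and 1.02 in NOD, against 2.54, 1.18 and 1.21 in ICR, so that NOD lay below ICR in every library (exact permutation p = 0.1), by 0.57 on the log2 scale with ICR 1 and by 0.21 without it. Counts of Col6a2 per count of Col6a1 were 0.686, 0.688 and 0.617 in NOD, against 0.745, 0.776 and 0.759 in ICR, again lower in every NOD library (exact permutation p = 0.1). Counts of Col4a1 per count of Col4a2 were 1.56, 1.53 and 1.38 in NOD, against 1.56, 1.38 and 1.36 in ICR. Counts of Col12a1 per count of Col1a1 were 0.21, 0.229 and 0.215 in NOD, against 0.0608, 0.213 and 0.211 in ICR.

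The other genes of the collagen pathway were read from 7 lists with 106 genes, of which 102 were tested. Of these, 1 was called higher in NOD by edgeR and 0 lower, and likewise without ICR 1 over 103 tested. Over all genes tested edgeR called 1.88% higher and 0.361% lower, and 2.1% and 0.611% without ICR 1. With all libraries edgeR gave 3 pathway genes higher and 19 lower with an unadjusted p under 0.05, where 13.1% of all genes had one in either direction. Without ICR 1 it gave 5 higher and 5 lower, where 16.6% of all genes had one. By adjusted p, limma-voom called 1 pathway gene higher and 0 lower, where it called 0.664% of all genes higher and 0.108% lower. By unadjusted p it gave 2 higher and 4 lower. No share over all genes was taken for limma-voom at that threshold, and the 13.1% from edgeR does not apply to it. The called gene was Lair1, an inhibitory collagen receptor of immune cells. It stood at 3.52, 5.56 and 5.26 CPM in NOD, against 0.92, 1.23 and 0.89 CPM in ICR, with every NOD library above every ICR library. Its log2 fold change was 2.23 ± 0.32 (SE; edgeR adjusted p = 0.0169), and 2.15 ± 0.35 (edgeR adjusted p = 0.0324) without ICR 1. The call was lost when ICR 2, ICR 3, NOD 2 or NOD 3 was left out, with edgeR adjusted p values of 0.0553 to 0.117 and log2 fold changes of 2.10 to 2.39. DESeq2 also called Lair1 higher, and it called Dcn and Tnxb lower in NOD, with adjusted p values of 0.0106 and 0.0308. Over all genes tested, DESeq2 called 4.84% higher and 1.54% lower. In edgeR the log2 fold change of Dcn was −2.14 ± 0.71, and −0.73 ± 0.19 without ICR 1, where ICR 1 held 6.03 times the mean of ICR 2 and ICR 3. That of Tnxb was −2.09 ± 0.75, and −0.65 ± 0.34 without ICR 1, which held 6.21 times that mean. They encode the fibril-binding proteins decorin and tenascin-X and are named, as is Nid1 below, after their values were seen.

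Genes for folding and modifying collagen in the endoplasmic reticulum had a median log2 fold change of −0.07 over 22 tested, and −0.08 without ICR 1. P4hb, the shared subunit of prolyl 4-hydroxylase and a general disulfide isomerase, was the most abundant at 959 ± 127 CPM in NOD and 930 ± 372 CPM in ICR. Values ran from −0.46 ± 0.24 for Creb3l1, a transcription factor that drives collagen production, to 0.85 ± 0.42 for Colgalt2, a collagen galactosyltransferase. The summed level of this list in ICR 1 was 0.671 times the mean of ICR 2 and ICR 3. Most of that sum was P4hb, at 0.572 times, so it does not stand for the list. Members went both ways. Of the 22, 9 were highest in ICR 1, among them Serpinh1 at 1.59 times, while Creb3l1 stood at 0.613 times. The sum of the fibrillar chains was at 3.76 times.

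Genes for trimming and crosslinking procollagen had a median of −0.46 over 13 tested, and −0.12 without ICR 1. Lox, the lysyl oxidase that starts crosslinking, averaged 65.5 ± 8.16 CPM in NOD and 68.2 ± 3.39 CPM in ICR (SD, n = 3 each). Pcolce2, an enhancer of procollagen cleavage, had −3.35 ± 1.11 (SE; edgeR adjusted p = 0.242) with ICR 1 at 16.1 times the mean of the other ICR libraries, and −0.77 ± 0.33 without ICR 1. Tll1, a procollagen protease, had the highest value at 1.66, at no more than 0.30 CPM in any library. Of the collagen receptors, which had a median of 0.01, Ddr2, a receptor tyrosine kinase for fibrillar collagen, had the lowest value at −1.77 ± 0.70, and −0.33 ± 0.16 without ICR 1. Itgb1, the shared β1 integrin chain, averaged 63.8 ± 1.99 CPM in NOD and 64.7 ± 16.4 CPM in ICR.

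Proteoglycans and glycoproteins on fibrils had the lowest median of the 7 lists, −1.61 over 14 tested, and −0.28 without ICR 1, and the list was 3.20 times as high in ICR 1 as in the other ICR libraries. Dpt, the fibril-binding protein dermatopontin, stood at 4.46, 10.7 and 4.30 CPM in NOD, against 168, 6.04 and 12.3 CPM in ICR, with a log2 fold change of −3.25 ± 1.20, and −0.50 ± 0.48 without ICR 1. Postn, periostin, had −0.01. Fn1, the fibronectin gene, averaged 200 ± 40.3 CPM in NOD and 269.5 ± 114 CPM in ICR.

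Basement membrane partners of type IV collagen had a median of −0.67 over 15 tested, and −0.22 without ICR 1. Nid1, which links laminin to type IV collagen, stood at 29.7, 23.6 and 23.6 CPM in NOD, against 181, 30.7 and 32.3 CPM in ICR. ICR 1 was thus 5.75 times the mean of the other ICR libraries for Nid1, while it was 1.25 and 1.10 times for Col4a1 and Col4a2. Lama1, a laminin chain, had the lowest value at −1.71 ± 0.60, with at most 1.44 CPM, and Agrn, agrin, the highest at 0.19 ± 0.17. Elastic fibre genes had a median of −0.57 over 12 tested, and −0.17 without ICR 1, from −2.34 for Mfap2, a microfibril protein, to 0.04 for Fbln2, fibulin-2. For Mfap2, ICR 1 held 11.1 times the mean of the other ICR libraries, and the value without ICR 1 was −0.23 ± 0.65. Genes of TGF-β signalling and fibroblast activation had a median of −0.02 over 17 tested, and 0.08 without ICR 1. They ran from −1.09 for Tgfb2, a TGF-β ligand, to 0.68 for Smad7, an inhibitor of the pathway, and Acta2, the smooth muscle actin of activated fibroblasts and myoepithelium, averaged 75.0 ± 5.93 CPM in NOD and 86.4 ± 13.2 CPM in ICR. For Tgfb2, ICR 1 held 4.21 times the mean of the other ICR libraries, and the value without ICR 1 was −0.06 ± 0.27.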

How the data were processed

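PolyA RNA of 6 lacrimal gland samples was sequenced as stranded paired reads of 150 bp, per the labels' protocols. The authors deposited 1 table of whole-number estimated counts per gene. Of tools, the notes on processing from the submitters list StringTie, fastp and edgeR. The sources used here do not give the aligner, the genome build or the strand setting. Values that are multiples of 4 were 30.4% to 31.7% of those from 1 to 40 in each library, against 25% without steps, so 1 fragment was taken as about 4 counts, and a count of 0 allows about 3 fragments or 12 counts (95%, counting error only). Counts were used as deposited. Genes passing filterByExpr were fitted with edgeR 4.0.16 (TMM factors, quasi-likelihood test, NOD over ICR, two-sided, Benjamini-Hochberg over all genes tested, threshold 0.05) in R 4.3.3, after the code was tested on simulated data. DESeq2 1.42.0, limma-voom (limma 3.58.1), other scalings and filters, counts divided by 4, a replicate block and leaving out each library were alternatives. CPM per kilobase used the longest protein-coding transcript of GENCODE M21, from which symbols were also taken. Chain ratios were compared by exact permutation (scipy 1.17.1).

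Values in every library are given for chains that averaged 5 CPM or more in a strain, chains called, and the 5 with the largest absolute fold change. Those of Col5a3, Col11a2, Col4a3, Col4a4, Col4a6 and Col6a5 were added after their values were seen, as were Prol1, Glyctk and Tlr9. From the pathway lists, called genes, the most abundant gene and those with the largest and smallest fold change were named. The members, classes and lists were chosen with earlier results of these data known. Deviations from the strain means of libraries with the same replicate number correlated at −0.165, −0.194 and 0.128, so the numbers were not taken to pair libraries.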

Additional observations from a re-analysis of the deposited data

How the results depend on the processing

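The count of genes called higher in NOD was 349 in edgeR, 898 in DESeq2, 123 in limma-voom and 226 with library size alone, and 11 to 406 when a library was left out. The count called lower was 67, 285, 20 and 40 in the same order, and 2 to 118. Without NOD 3 the counts were 11 and 2. Collagen chains called higher were 1, in limma-voom 0, and 0 to 1 when a library was left out. Chains called lower were 0, and 1 in DESeq2, Col6a6. Other pathway genes called higher were 1, and 0 to 1 when a library was left out. Those called lower were 0, and 2 in DESeq2, which called 1.54% of all genes lower. The replicate block was run although the numbers were not taken to pair libraries. With the block 129 genes were called higher and 25 lower, and 0 other pathway genes higher, where Lair1 had an edgeR adjusted p of 0.074, while Col6a4 stayed called at 5.37 (adjusted p = 0.0286). Over all 15 alternatives Col6a4 kept a log2 fold change of 5.06 to 5.98, and was called in all but limma-voom and without NOD 3. Library size alone moved the median log2 fold change of all genes to 0.09, from −0.03.

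Some values changed sign, none of them called; with all libraries most were near 0, but Col4a3 (−1.26), Col6a5 (−0.92), Col6a1 (−0.87) and Col6a3 (−0.53) were not. With library size alone these were Col11a1 (0.016), Col12a1 (0.10), Col23a1 (0.12), Lox (0.042), Itgb1 (0.063) and Postn (0.052). With limma-voom they were Col17a1 (−0.0017), Col22a1 (−0.078), Col23a1 (0.0076), Itgb1 (0.011) and Postn (0.024), and with the block Col17a1 (−0.081), Col22a1 (−0.035), Itgb1 (0.0088) and Postn (0.019). Col22a1 was also at −0.0014 in DESeq2, −0.0012 with RLE factors and −0.013 with the 20 most abundant genes left out. When a library was left out, log2 fold changes ran from −0.24 to 0.021 for Col4a1, −2.00 to 0.17 for Col4a3, −0.54 to 0.13 for Col5a1, −1.21 to 0.045 for Col6a1, −0.80 to 0.047 for Col6a3, −1.57 to 0.17 for Col6a5, −0.48 to 0.042 for Col7a1, −0.071 to 0.12 for Col8a1, −0.53 to 0.14 for Col11a1, −0.13 to 0.10 for Col12a1, −0.44 to 0.43 for Col17a1, −0.061 to 0.77 for Col20a1, −0.31 to 0.24 for Col22a1, −0.46 to 0.16 for Col23a1 and −0.015 to 0.54 for Col26a1. For other genes they ran from −0.20 to 0.40 for P4hb, −0.13 to 0.028 for Lox, −0.14 to 0.19 for Itgb1, −0.16 to 0.21 for Postn and −0.10 to 0.18 for Fbln2. Differences in log2 ratio ran from −0.019 to 0.16 for Col1a1:Col1a2, −0.18 to 0.11 for Col5a2:Col5a1, −0.25 to 0.48 for Col4a5:Col4a6, −0.0051 to 0.30 for Col6a3:Col6a1 and −0.062 to 0.23 for Col6a1:Col1a1. The cause was not tested. Depth limits the rare chains: a level under the floor of 12 counts in a library is not told apart from 0.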

Other observations

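Set against marker sums, a comparison chosen after the values were seen, Col6a4 stood at 4.15, 4.07 and 3.70 CPM per 100 CPM of B cell markers in NOD 1, 2 and 3, against 7.98, 3.19 and 4.20 in ICR 1, 2 and 3, where it rested on 13 to 19 counts. Per 100 CPM of T cell markers it stood at 17.8, 25.9 and 20 in NOD, against 12.9, 7.26 and 10.2 in ICR. The summed CPM of Col1a1, Col1a2 and Col3a1 was 1.76, 0.966 and 1.65 times the fibroblast marker sum in NOD, against 1.03, 1.43 and 1.41 times in ICR, so that ICR 1 lay within the range of the NOD libraries.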
